A study of Mus musculus with 12 samples.

Results

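Expression of 6 genes of fructose uptake and use was followed in epithelial cells of the mouse small intestine after experimental stroke. The genes were chosen by name from the count table, with earlier results of these data known, and made up 6 of its 15855 genes. They were the fructose transporter Slc2a5, the fructose-degrading enzymes Khk, Tkfc and Glyctk, the sorbitol dehydrogenase Sord and the carbohydrate response factor Mlxipl. Male mice of strain C57BL6/J aged 8 to 12 weeks underwent permanent middle cerebral artery occlusion (pMCAO, n = 5), in which a filament closes a main artery of the brain and flow is not restored, or sham surgery without the occlusion (n = 7). All mice received the same ketamine and xylazine anaesthesia and carried no transgene. Live cells bearing EpCAM, a surface protein of epithelial cells, were sorted 24 h later from nearly the whole length of the small intestine, so that 1 library mixes duodenal, jejunal and ileal cells. The labels give each library as a separate biological replicate.

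Dietary fructose enters the enterocyte through the brush-border transporter GLUT5, the product of Slc2a5. Ketohexokinase, encoded by Khk, phosphorylates it to fructose 1-phosphate, which an aldolase splits into dihydroxyacetone phosphate and glyceraldehyde. Triokinase, encoded by Tkfc, phosphorylates the glyceraldehyde, while glycerate kinase, encoded by Glyctk, acts on glycerate made from it. Sorbitol dehydrogenase forms fructose from sorbitol inside the cell. Mlxipl encodes ChREBP, a transcription factor that responds to sugar phosphates and is known to be needed for the intestinal response to fructose.

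The 6 genes lie on 5 chromosomes of the mouse assembly GRCm38, all annotated as protein-coding in GENCODE M21. Slc2a5 (ENSMUSG00000028976) spans chr4:150119283-150144169 on the plus strand. Khk (ENSMUSG00000029162) spans chr5:30921431-30931248 and Mlxipl (ENSMUSG00000005373) chr5:135089890-135138382, both on the plus strand of the same chromosome. Tkfc (ENSMUSG00000034371) spans chr19:10587791-10605654 and Glyctk (ENSMUSG00000020258) chr9:106152857-106158138, both on the minus strand. Sord (ENSMUSG00000027227) spans chr2:122234749-122265340 on the plus strand. Counts were made per gene, so the A and C isoforms of ketohexokinase, of which the C form is the one that handles dietary fructose, were not separated. Exons of Tkfc share 596 nt with Cyb561a3 and 328 nt with Ddb1 on the opposite strand, and those of Glyctk share 2203 nt, or 52.1% of their length, with the antisense gene D030055H07Rik. Exons of Mlxipl share 235 nt with the antisense gene Gm43500. Whether reads were counted by strand was not stated, so reads of such partners cannot be told apart there.

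Upstream sequences are shown for the transporter and both kinases, the members with the clearest differences between groups, and for Mlxipl, whose product binds E-box pairs. They are RefSeq sequences of GRCm38.p6, written 5′ to 3′ along the strand of the gene, without bases that GENCODE places in an exon except in the 26 bases around the Khk E-box. All 6 genes matched RefSeq, with 7 windows of 250 bases before to 50 after a start, since Mlxipl has 2 starts. The Tkfc stretch lies before its RefSeq start but inside the longer GENCODE span of the gene, outside annotated exons. Capitals mark the E-box core CACGTG or the short HNF4A core CAAAGT, which reads as ACTTTG from the other strand, HNF4A being a nuclear receptor of enterocytes.
Slc2a5 (chr4:150119094-150119235, plus strand): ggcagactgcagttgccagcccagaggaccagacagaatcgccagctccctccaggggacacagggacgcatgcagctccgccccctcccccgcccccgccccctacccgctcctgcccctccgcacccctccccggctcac
Khk (chr5:30921309-30921430, plus strand): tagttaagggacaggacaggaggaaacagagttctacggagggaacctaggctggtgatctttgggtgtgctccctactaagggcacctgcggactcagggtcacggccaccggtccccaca
Khk E-box (chr5:30921478-30921503, plus strand): cgttccccgtCACGTGacaccgttaa
Tkfc (chr19:10604274-10604508, minus strand): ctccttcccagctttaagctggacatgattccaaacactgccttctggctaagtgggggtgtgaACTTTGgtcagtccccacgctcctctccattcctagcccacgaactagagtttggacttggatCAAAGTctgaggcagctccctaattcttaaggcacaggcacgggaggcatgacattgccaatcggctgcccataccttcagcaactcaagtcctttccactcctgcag
Mlxipl (chr5:135089640-135089889, plus strand): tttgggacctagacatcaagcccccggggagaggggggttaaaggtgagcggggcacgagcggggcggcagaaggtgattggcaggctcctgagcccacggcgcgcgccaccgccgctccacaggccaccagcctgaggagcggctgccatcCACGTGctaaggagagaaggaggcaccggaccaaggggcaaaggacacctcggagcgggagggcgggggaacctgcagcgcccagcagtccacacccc

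The E-box core CACGTG, searched on both strands, occurred in the windows of Khk and of the first start of Mlxipl and in no window of the other 4 genes. It was present in 7.15% of all 32851 RefSeq windows. In Khk it lay 71 bases before the RefSeq start, inside an exon of a longer GENCODE transcript, and in Mlxipl 98 bases before the start. The pair of E-boxes spaced by 5 bases, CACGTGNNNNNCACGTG, occurred in 0 of all windows of this length. The short core CAAAGT occurred in 14.4% of all windows, and among the 6 genes in Tkfc, with 2 matches, and in Glyctk, with 1 at its start. Both Tkfc matches lie inside the GENCODE span of the gene, outside its exons. The matches in all windows describe letters and say nothing on binding in these cells.

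Total counts per sample ranged from 7418730 to 31925579. The titles carry library numbers, and 4 blocks of neighbouring numbers were used as a second design, with split points that an earlier analysis of these data chose to match the deposited fold changes. Block 1 held 3 sham and 1 pMCAO libraries, block 2 held 2 of each, block 3 held 1 sham and 2 pMCAO libraries, and block 4 held sham replicate 7 alone. The 4 libraries of block 1 stood apart, with 13386 to 14712 genes detected against 15343 to 15766 in the other 8, and 34.8 to 54.5% of counts on mitochondrial ribosomal RNA against 14.6 to 35.2%. All 5 epithelial gate markers, Epcam included, and all 11 enterocyte markers were above 0 in every library. Levels below are TMM-scaled CPM, that is reads of a gene relative to the size of its library, and group values are mean ± SD. Differences are log2 fold changes from limma-voom, above 0 where pMCAO is higher, with their standard error (SE). A gene was called where its p, adjusted by the Benjamini-Hochberg method across all 14462 genes tested, did not exceed 0.05 and its log2 fold change was 1 or more in size. All 6 members passed the filter on low counts and were among the genes tested.

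The transporter Slc2a5 was higher on average in pMCAO mice but overlapped between groups. Its level in sham libraries was lowest at 5.09, with a median of 9.64 and a highest value of 20.9 CPM. The 5 pMCAO libraries, from replicate 1 to 5, held 55.7, 24.96, 9.09, 46.2 and 45.7 CPM. Thus 4 of the 5 pMCAO libraries lay above every sham library, and pMCAO replicate 3 lay below the sham median. Group means were 11.3 ± 5.68 (SD, n = 7) and 36.3 ± 18.9 CPM (SD, n = 5). The log2 fold change of 1.43 (SE 0.49, 95% interval 0.39 to 2.48) was not called, with a limma-voom adjusted p of 0.444. With library blocks it was 1.45 (SE 0.35) with an adjusted p of 0.0754. Within blocks the log2 difference was 2.51 in block 1, 0.80 in block 2 and 1.13 in block 3, each in the same direction.

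Khk was the single member whose groups did not overlap. Sham libraries ran from 24.4 to 53.0 CPM with a median of 41.5. The pMCAO libraries held 90.8, 62.97, 75.9, 114 and 148 CPM, so that the lowest of them lay above the highest sham library. Every pMCAO library was above every sham library for 0.311% of the genes tested. Group means were 41.1 ± 10.3 (SD, n = 7) and 98.4 ± 33.7 CPM (SD, n = 5). On the group alone the log2 fold change was 1.17 (SE 0.23, 95% interval 0.68 to 1.67), which did not pass the threshold after adjustment (limma-voom adjusted p = 0.110). With library blocks Khk rose by 1.10 on the log2 scale (SE 0.18, 95% interval 0.73 to 1.47, adjusted p = 0.0108).

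Tkfc, which acts on the glyceraldehyde that follows from the ketohexokinase step, had a difference of a size near that of Khk. Sham libraries ran from 38.1 to 73.4 CPM with a median of 46.8. The pMCAO libraries held 195, 111, 73.2, 146 and 152 CPM. Of these, 4 lay above every sham library, while replicate 3, at 73.2, fell within 1 CPM of sham replicate 1, the highest sham library. Group means were 51.4 ± 13.2 (SD, n = 7) and 136 ± 46.0 CPM (SD, n = 5). The log2 fold change was 1.36 (SE 0.24, 95% interval 0.84 to 1.88) with an adjusted p of 0.0728 in limma-voom on the group alone. With library blocks Tkfc rose by 1.40 (SE 0.23, 95% interval 0.91 to 1.88, adjusted p = 0.0134).

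Both kinases were higher in pMCAO within every block that held both groups. The log2 difference of Khk was 1.53, 0.68 and 1.29 in blocks 1, 2 and 3. For Tkfc it was 1.90, 0.73 and 1.92. In each of these blocks all pMCAO libraries lay above all sham libraries of the same block for both genes, although block 1 holds 1 pMCAO library and block 3 holds 1 sham library. On the group alone without the 4 libraries of block 1, the log2 fold change was 0.98 (SE 0.26) for Khk and 1.27 (SE 0.25) for Tkfc. Neither was called (limma-voom adjusted p = 0.574 and 0.396), nor was either in the group-only fit of all libraries. The calls with library blocks were lost without pMCAO replicate 1 (adjusted p = 0.0872 for Khk and 0.104 for Tkfc) and without sham replicate 6 (0.147 for both). Khk and Tkfc are also on the list of changed genes that the study drew from this experiment, with a further pMCAO sample that is not analysed here, so their direction is not independent evidence. The exon partners of Tkfc on the other strand had log2 fold changes of -0.10 (SE 0.37) for Cyb561a3 and 0.16 (SE 0.18) for Ddb1, and neither was called.

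Glyctk was the lowest of the 6 genes. In sham libraries it ranged from 0.207 to 5.32 CPM with a median of 2.10, from as few as 1 count in replicate 2, under the floor of 3 counts. The pMCAO libraries held 2.56, 4.21, 6.57, 5.60 and 5.43 CPM on 30 to 285 counts. The groups overlapped, with 3 of the 5 pMCAO libraries above every sham library. Its log2 fold change of 1.38 (SE 0.50, 95% interval 0.32 to 2.44) was not called (limma-voom adjusted p = 0.495). With library blocks it was 0.82 (SE 0.42) with an interval from -0.06 to 1.71 (adjusted p = 0.428). The antisense gene that covers much of its exons averaged 0.406 CPM in sham and 0.735 CPM in pMCAO libraries and was too low to be tested.

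Sord, which makes fructose from sorbitol, had nearly equal means. Sham libraries ran from 19.6 to 62.9 CPM with a median of 43.5. The pMCAO libraries held 45.5, 21.2, 40.0, 53.4 and 46.4 CPM, all inside the sham range. Its log2 fold change was -0.01 (SE 0.30), and the 95% interval from -0.63 to 0.62 leaves room for a difference of either sign. With library blocks it was 0.10 (SE 0.20, interval -0.32 to 0.51).

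Mlxipl also overlapped fully and varied between blocks. Sham libraries ran from 74.4 to 163 CPM with a median of 124, the 3 highest being those of block 1. The pMCAO libraries held 88.0, 87.2, 81.5, 143 and 160 CPM, with both libraries of block 3 far above the others. The log2 fold change was -0.10 (SE 0.24, 95% interval -0.62 to 0.42) on the group alone and -0.07 (SE 0.20, interval -0.50 to 0.36) with library blocks. Within blocks it was -0.80, -0.19 and 0.68, so the direction was not shared.

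**Figure D1:**
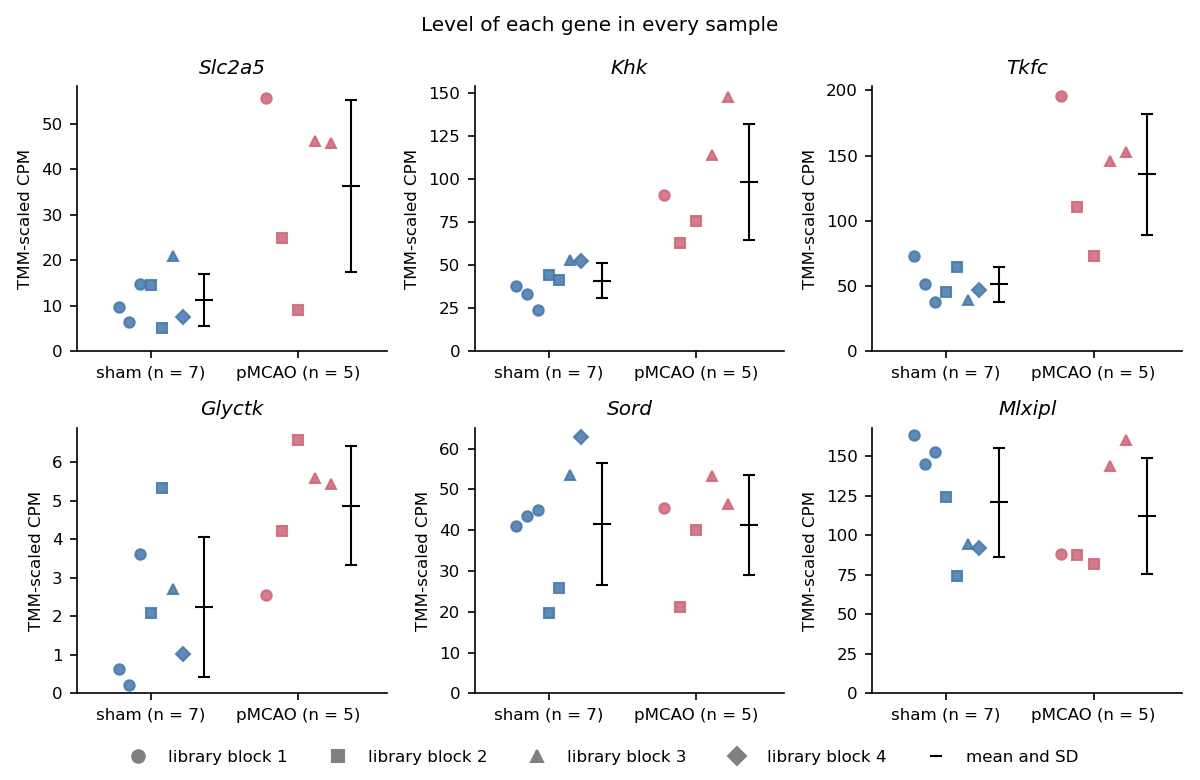
TMM-scaled CPM of each gene (linear axes from 0) in the 7 sham and 5 pMCAO libraries, 1 point per library, with the shape giving the library block and the bar the mean and SD. Every pMCAO point of Khk lies above every sham point, 4 of 5 do so for Slc2a5 and Tkfc, and the points of Sord and Mlxipl overlap fully.

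Counted together, 4 of the 6 genes had a log2 fold change above 0 on the group alone and 5 of 6 with library blocks, against 55.2% and 51.3% of all genes tested. Of the 6, 4 had an unadjusted p under 0.05 in the higher direction on the group alone, against 4.66% of all genes, and 0 had one in the lower direction, against 3.77%. None was called, as were 0% of all genes, the smallest adjusted p of any gene being 0.0557. Under edgeR's quasi-likelihood test the count of members called was also 0, and under DESeq2 it was 3, all higher. Of the genes that DESeq2 gave an adjusted p, which leaves out Glyctk, 0.793% were called, 0.315% in the higher direction. With library blocks 0.325% of all genes were called, 0.138% higher and 0.187% lower, and among them were 2 members, both higher. In that fit 3 members had an unadjusted p under 0.05 in the higher direction, against 6.58%, and 0 in the lower direction, against 6.17%. The median log2 fold change of the 6 genes was 1.27 on the group alone and 0.96 with blocks, beside medians of 0.06 and 0.01 over all genes. Slc2a5, Khk, Tkfc and Glyctk were each higher in pMCAO within blocks 1, 2 and 3, as were 17.2% of all genes tested. The 6 genes were chosen with earlier results of these data known, and the block split points to match the deposited fold changes. These counts are therefore not independent evidence of a difference. In bulk libraries, a change in the number of cells of a type and a change in RNA per cell cannot be told apart.

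**Figure D2:**
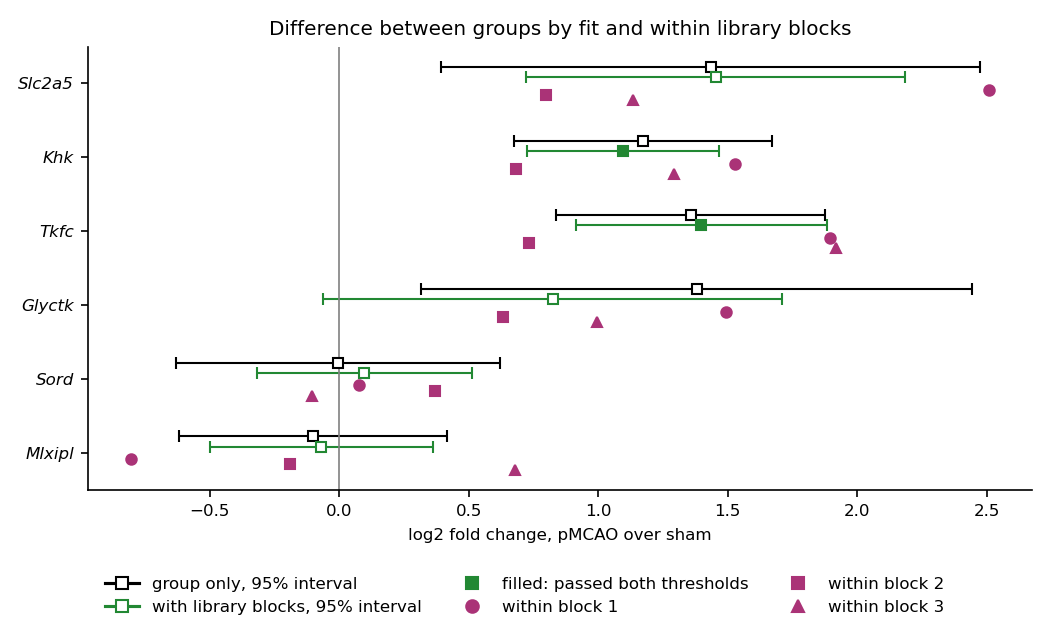
Log2 fold change of pMCAO over sham for each gene from the group-only fit (black) and the fit with library blocks (green), with 95% intervals, and the plain log2 difference within each block (purple shapes). Filled squares mark Khk and Tkfc with blocks, at 1.10 and 1.40, and the intervals of Sord and Mlxipl span 0.

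Levels were divided by exon length for a rough comparison between genes. The divisor was the length of all annotated exons joined, 1797 nt for Khk and 4617 nt for Tkfc, not that of the transcripts present. In sham libraries the mean CPM per kb of exon was 22.9 for Khk, 21.8 for Mlxipl and 17.7 for Sord. It was 11.1 for Tkfc, 3.31 for Slc2a5 and 0.528 for Glyctk. The upper part of this order was loose. Khk exceeded Mlxipl in 4 of 7 sham libraries, and Mlxipl exceeded Sord, and Sord exceeded Tkfc, in 5 of 7. The order below them, Tkfc over Slc2a5 over Glyctk, held in 7 of 7. In pMCAO libraries the means per kb were 54.8 for Khk, 29.4 for Tkfc, 20.2 for Mlxipl, 17.6 for Sord, 10.7 for Slc2a5 and 1.15 for Glyctk. Khk was above Tkfc, and Tkfc above Mlxipl, in 5 of 5 pMCAO libraries, so that Tkfc stood in the second place there and in the fourth in sham libraries. The order of Khk and Tkfc depends on the lengths used. Without them the mean of Tkfc was the higher, at 51.4 against 41.1 CPM in sham and 136 against 98.4 CPM in pMCAO libraries. Slc2a5 stayed below Sord and above Glyctk in 5 of 5. Mlxipl and Sord could not be ordered, with Mlxipl higher in 3 of 5.

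A ratio between members within a library does not depend on the scaling of that library, and Sord and Mlxipl, with the smallest differences, served as the denominators after their values were seen. The ratio of Khk to Mlxipl counts ran from 0.160 to 0.573 in sham libraries and was 1.03, 0.722, 0.931, 0.796 and 0.925 in pMCAO libraries. The ratio of Tkfc to Mlxipl ran from 0.2502 to 0.873 in sham libraries and was 2.22, 1.27, 0.898, 1.02 and 0.952 in pMCAO libraries. Both ratios were above all sham values in every pMCAO library, as was the ratio to Mlxipl of 0.173% of all genes tested. Slc2a5 to Mlxipl ran from 0.0450 to 0.221 in sham libraries, and 4 of 5 pMCAO libraries, at 0.633, 0.286, 0.323 and 0.285, lay above that range while replicate 3, at 0.112, did not. Relative to Sord the mean log2 ratio was 1.22 higher in pMCAO for Khk, 1.35 higher for Tkfc and 1.57 higher for Slc2a5, with overlap between groups for all of them. Khk relative to Tkfc differed by -0.13 in mean log2 ratio, within the SD of 0.51 among sham libraries.

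**Figure D3:**
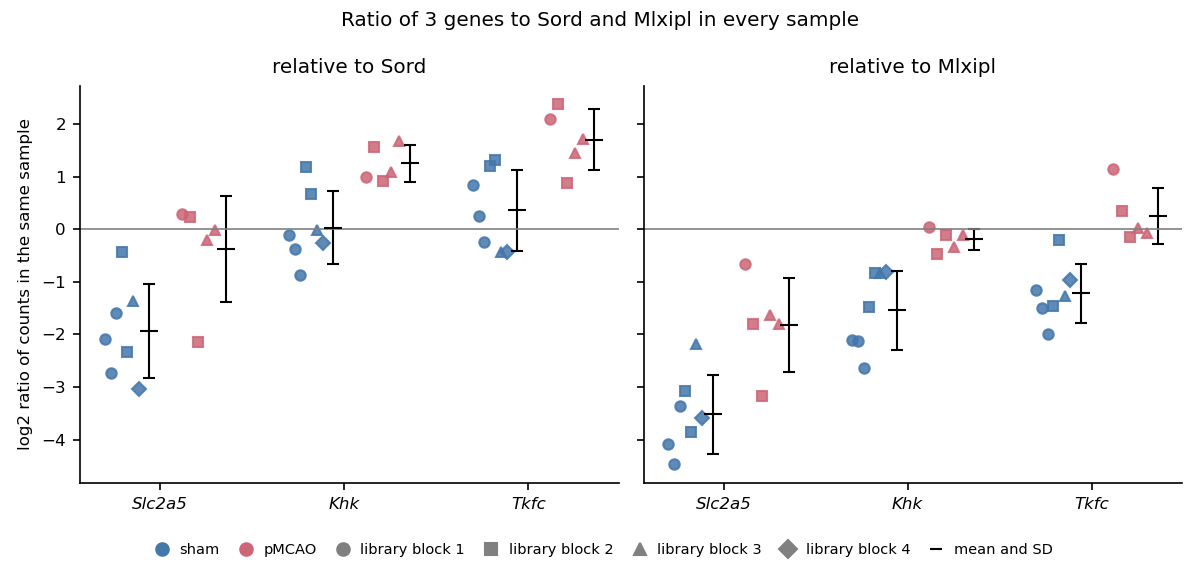
Log2 ratio of Slc2a5, Khk and Tkfc counts to Sord (left) and Mlxipl (right) counts in the same library, 1 point per library, with the mean and SD per group and 0 marking equal counts. Ratios of Khk and Tkfc to Mlxipl lie higher in each pMCAO library than in any sham library, and those to Sord overlap.

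Across the 12 libraries, with each block's mean subtracted, the log2 levels of Khk and Tkfc followed each other closely (Pearson's r = 0.93). Those of Slc2a5 had r = 0.69 with Khk and 0.70 with Tkfc. These values are descriptions and hold the difference between groups. With the group means subtracted in place of the block means, r was 0.32 for Khk with Tkfc, 0.34 for Slc2a5 with Khk and 0.31 for Slc2a5 with Tkfc. Among all genes tested, the 2 with the highest r after removal of block means were Mgam (0.97) and Khk itself for Tkfc, Mgam being the brush-border maltase-glucoamylase. For Khk they were Rps16-ps2 (0.95) and Lsp1 (0.94), and for Slc2a5 they were Eml4 (0.96) and Suclg1 (0.95). For Glyctk they were Slc25a17 (0.97) and Cacna1h (0.96), for Sord Pnpla3 (0.88) and Dnah7a (0.87), and for Mlxipl Brms1 (0.98) and Rmnd5b (0.95). With group means subtracted instead, r was 0.52 for Mgam with Tkfc. In the order named it was 0.37 and 0.23 for the genes nearest Khk, and 0.44 and 0.25 for those nearest Slc2a5. For the pairs of Glyctk, Sord and Mlxipl it was 0.81 and 0.78, 0.10 and 0.83, and 0.73 and 0.91. All libraries share their sorting gate and differ in depth, and each pair named is the top 2 of 14462 genes over 12 points. Sham replicate 7, alone in block 4, is at 0 by construction once block means are removed. Those r values therefore rest on the other libraries. Lsp1, Dnah7a and Pnpla3 were low, at sham means of 1.59, 1.74 and 0.559 CPM.

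Other genes of sugar handling gave a mixed picture. Of the 6 other hexose transporters tested, 5 had a log2 fold change above 0 on the group alone, with 1 at an unadjusted p under 0.05 and a list median of 0.56. That gene was Slc5a1, the sodium-coupled glucose transporter of the brush border, at 462 ± 142 CPM in sham and 884 ± 375 CPM in pMCAO libraries, with a log2 fold change of 0.92 (SE 0.26, limma-voom adjusted p = 0.338). Slc2a2, the hexose carrier GLUT2, had 0.86 (SE 0.46), and Slc5a9 had 0.43 (SE 0.26). The difference of Slc2a5, at 1.43, was the largest among these hexose carriers, and its 95% interval of 0.39 to 2.48 includes the values of Slc5a1, Slc2a2 and Slc5a9.

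Of 21 other enzymes of fructose and mannose metabolism, 10 had values above 0 and 11 below, with 2 at an unadjusted p under 0.05 in each direction and a median of -0.06. Fbp1, the fructose-bisphosphatase of gluconeogenesis, averaged 3.13 ± 2.92 CPM in sham and 14.3 ± 7.72 CPM in pMCAO libraries and rose by 2.16 (SE 0.42, adjusted p = 0.0337) with library blocks. Its paralogue Fbp2 had a log2 fold change of 0.79 (SE 0.28) on the group alone. In the lower direction were Pfkfb3, which makes the glycolytic activator fructose 2,6-bisphosphate, at -1.34 (SE 0.45), and Pfkl, a phosphofructokinase named after its value was seen, at -0.62 (SE 0.26). None of these 4 was called on the group alone.

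Of 11 enzymes of polyol and glyceraldehyde metabolism, 9 had values above 0, with 1 at an unadjusted p under 0.05 and a median of 0.45. It was Akr1b7, an aldo-keto reductase, at 12.3 ± 4.86 CPM in sham and 45.4 ± 19.1 CPM in pMCAO libraries. Every pMCAO library was above every sham library for this gene, as for 0.311% of all genes tested. Akr1b7 rose by 1.71 (SE 0.27, limma-voom adjusted p = 0.00886) with library blocks. Adh5 and Aldh2, an alcohol and an aldehyde dehydrogenase, had 0.66 (SE 0.33) and 0.40 (SE 0.27) on the group alone. Like Khk and Tkfc, both Fbp1 and Akr1b7 are on the study's own list from this experiment.

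Of 20 partners and known targets of ChREBP tested, 13 had values above 0, with 3 at an unadjusted p under 0.05, 0 of them lower, and a median of 0.19. Their summed level was 668 to 892 CPM in sham and 915 to 1261 CPM in pMCAO libraries, without overlap. The largest part of that sum was Txnip, at 157 ± 37.7 CPM in sham and 241 ± 24.9 CPM in pMCAO libraries. Of the 20 genes, 7 had values below 0, so the sum does not describe the list as a whole. How often sums of other genes are without overlap was not determined. The list was not tested as a set. G6pc, the catalytic subunit of glucose-6-phosphatase, averaged 12.4 ± 8.89 CPM in sham and 50.4 ± 29.1 CPM in pMCAO libraries, with a log2 fold change of 2.08 (SE 0.42, limma-voom adjusted p = 0.110). Slc37a4, which carries glucose 6-phosphate into the endoplasmic reticulum, had 1.13 (SE 0.32), and Txnip, a glucose-responsive arrestin, had 0.66 (SE 0.20). None was called on the group alone or with library blocks. Every pMCAO library was above every sham library for G6pc and Txnip, as for 0.311% of all genes tested, but not for Slc37a4. For G6pc the lowest pMCAO and the highest sham values were 26.3 and 26.2 CPM. Mlxipl itself had -0.10, with a 95% interval of -0.62 to 0.42 and a direction not shared between blocks. Counts per gene do not separate its 2 starts. Its dimer partner Mlx had 0.20 (SE 0.19).

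**Figure D4:**
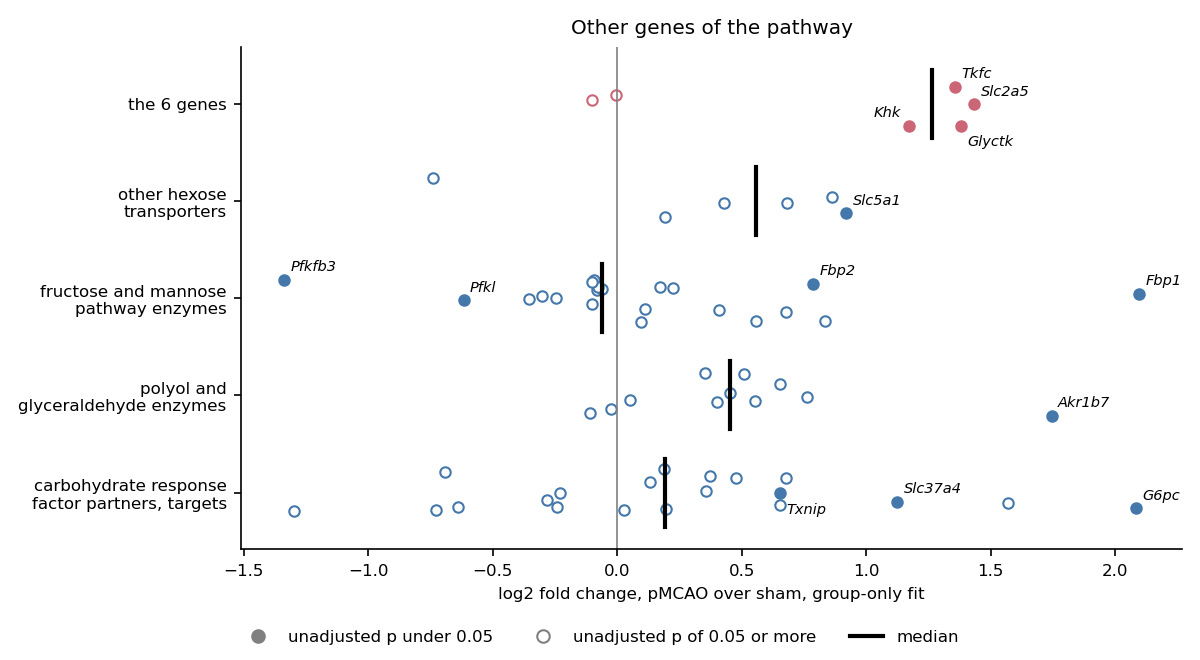
Log2 fold change of pMCAO over sham on the group alone for the 6 genes (red) and for other genes of the pathway by list (blue), 1 point per gene, filled at an unadjusted p under 0.05, with black bars for medians. The median of the 6 genes is 1.27, and those of the 4 lists are 0.56, -0.06, 0.45 and 0.19 from top to bottom.

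Most markers of absorptive cells had values in the same direction as Khk and Tkfc. Of 11 enterocyte markers, 9 had values above 0 and 4 of these an unadjusted p under 0.05, among them the disaccharidase gene Sis at 1.14 (SE 0.32). On the group alone none was called, and none was at 0 in any library. Their summed level was 21940 to 45183 CPM in sham and 27893 to 84239 CPM in pMCAO libraries. The largest parts of that sum were Apob, Apoa4 and Apoa1, at 14740, 6745 and 5780 CPM on average in sham libraries. The log2 fold changes of Apob, Apoa4 and Apoa1 on the group alone were -0.08, -0.15 and 0.11. The highest sum was that of pMCAO replicate 1 alone, and the other 4 pMCAO libraries, at 27893 to 39293 CPM, lay inside the sham range. With library blocks 11 of 11 enterocyte markers had values above 0, 3 of them at an unadjusted p under 0.05, and none was called. Relative to this sum Tkfc was above every sham library in 5 of 5 pMCAO libraries, with a mean log2 difference of 1.199, as did 0.0554% of genes tested. Slc2a5 did so in 4 of 5, with a difference of 1.43, and Khk in 2 of 5, with a difference of 1.07. The part of cell composition in the results was not tested.

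Regional markers did not move together. Of 8 proximal small intestine markers, 5 had values above 0 and 3 below, with Fabp1 at 1.00 (SE 0.47) among the higher and Adh6a at -1.30 (SE 0.34), Bco1 at -2.30 (SE 0.61) and Cybrd1 at -3.16 (SE 0.95) the lower. Of these, Bco1 was called with library blocks, where it fell by 2.11. Cybrd1 was near the floor, at 1.33 CPM in sham and 0.193 CPM in pMCAO libraries on average, with 16.7% of samples at 0. The proximal markers summed to between 1497 and 2892 CPM in sham and between 1605 and 2941 CPM in pMCAO libraries. Of 4 distal markers 3 had values above 0, and 2 of them an unadjusted p under 0.05. All 6 goblet cell markers had log2 fold changes above 0 on the group alone, at an unadjusted p of 0.05 or more, with sums of 4088 to 49026 CPM in sham and 7233 to 54719 CPM in pMCAO libraries. In the other marker lists 0 genes had an unadjusted p under 0.05 on the group alone. With library blocks 4 of the 6 goblet cell markers had an unadjusted p under 0.05 in the higher direction. All 4 tuft cell markers tested had values below 0 in that fit, 2 of them at an unadjusted p under 0.05, and of the leukocyte markers 1 was higher at that level. None of these was called, and their part in the results was not tested. The 6 leukocyte markers summed to 40.3 to 338 CPM in sham and 50.2 to 204 CPM in pMCAO libraries, and 0 of 5 exocrine pancreas markers were in the table. The part of intestinal region in the differences of Slc2a5, Khk and Tkfc was not tested.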

How the data were processed

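RNA was measured in EpCAM+ small intestinal epithelial cells of 7 sham and 5 pMCAO mice, grouped by the labels. According to the study's methods, the authors depleted ribosomal RNA by cleavage, aligned paired-end reads to GRCm38 with STAR, counted them per gene with featureCounts and tested with limma-voom, correcting for the day of collection. The versions of STAR, featureCounts and limma and the strand setting were not given in the sources used here. The deposited count columns hold whole-number read counts of 15855 genes, not normalised. The deposited CPM columns equal count over table total for 190260 of 190260 values (tolerance 0.0006) and were not otherwise used. Deposited log2 columns hold the authors' fold change and average expression, and deposited p-value columns their p-values and FDR. No step here read these values, although the library blocks described next were chosen against the fold changes. The table was filtered before deposit, since each of its 15855 genes has 4 or more samples at 0.5 CPM or above. Sample columns without a matching sample numbered 0.

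Genes were kept with filterByExpr (minimum count 10), which removed 1393 of 15855, scaled with TMM and tested with limma-voom on the group alone, using R 4.3.3 with edgeR 4.0.16 and limma 3.58.1, with no batch term because the labels give no collection day. A second design added 4 library blocks. Their split points come from an earlier analysis of these data, which chose them so that the fold changes matched the authors' deposited ones. They are therefore not independent of the authors' fit, and whether each block is a day of collection is not known. P-values measure the spread between these samples. Within-group library pairs differed beyond counting noise (lowest chi-square per degree of freedom 20.1). DESeq2 1.42.0 and edgeR's quasi-likelihood test were alternatives among 38. A floor of 3 counts, covering counting error only, was 0.0940 to 0.404 CPM depending on the library. Exon lengths were taken from GENCODE M21, and log2 CPM for correlations used a prior count of 2. Ratios added 0.5 to each count. Scripts were tested on simulated data.

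The members and the gene lists (4 pathway and 14 marker lists) were chosen with earlier results of these data known. Genes named were the 6 members, in each pathway list the 3 with the smallest unadjusted p on the group alone and any called in either design, the 2 most correlated genes of each member, and marker genes where a value beside a result needed them. Values of some genes are not reported here.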

Additional observations from a re-analysis of the deposited data

Results flagged for a closer look

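In 48 sets of values, each a gene or list in 1 group, 6 held a library far from the others of its group by Dixon's test at the 95% level, where chance gives 2.4, about 1 in 20. All are summed levels of a list, given as log2 of the summed CPM plus 1, and 0 are levels of the 6 genes themselves. In pMCAO replicate 1, the pMCAO library of block 1, the ChREBP partners and targets stood at 10.3 against 9.84 to 9.96 in the other 4 pMCAO libraries. The epithelial gate markers of the same library stood at 13.36 against 12.04 to 12.17. Its enteroendocrine markers stood at 7.49 against 10.2 to 11.2, its tuft cell markers at 4.483 against 7.57 to 8.18, and its stem cell markers at 2.635 against 4.47 to 4.75. Block 1 as a whole, sham libraries included, held 8454 to 10536 CPM of gate markers, against 4210 to 7514 in the other blocks. Its enteroendocrine sums were 179 to 304 CPM against 1170 to 2490, and its tuft cell sums 8.71 to 35.2 against 132 to 642. For the ChREBP and stem cell lists block 1 overlapped the other blocks. In pMCAO replicate 1 Slc2a5 and Tkfc were at their highest of all 12 libraries, at 55.7 and 195 CPM. In sham replicate 7, alone in block 4, the proximal small intestine markers stood at 10.55 against 11.1 to 11.5 in the other 6 sham libraries. The part of these libraries in the differences of the 6 genes was not tested beyond leaving each of them out.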

How the results depend on the processing

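Across the 38 alternatives Slc2a5, Khk, Tkfc and Glyctk kept values above 0 in all 38, at 1.07 to 2.16, 0.98 to 1.43, 1.15 to 1.68 and 0.66 to 1.69. They passed both thresholds in 4, 16, 17 and 0 of them. For Khk and Tkfc, 10 calls each came from leaving out 1 library with library blocks, and further ones from other fits with blocks. Both were also called with DESeq2 and with sample quality weights, which held no blocks. Tkfc was called on the group alone without pMCAO replicate 3 as well. The split points of the blocks were chosen to match the deposited fold changes, and the members with earlier results known. None of these calls is therefore independent support. The upper ends for Slc2a5 and Khk came from the fit with a replicate block. Sord was above 0 in 24 of 38 and Mlxipl in 5 of 38, and neither was called in any.

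Genes called numbered 0 on the group alone (1219 at an unadjusted p under 0.05), also with edgeR (930), and 47 with library blocks, 68 with DESeq2, 1 with limma-trend, 21 with blocks and edgeR, 115 with blocks and DESeq2, and 18 with sample quality weights. Members called numbered 0 on the group alone, 2 with library blocks, 3 with DESeq2, 2 with blocks and edgeR, 3 with blocks and DESeq2, and 2 with quality weights. Slc2a5 was called at 1.66 with DESeq2 and 1.44 with blocks and DESeq2. Khk was called at 1.10 with blocks, 1.24 with DESeq2, 1.12 with blocks and edgeR, 1.11 with blocks and DESeq2 and 1.26 with quality weights. Tkfc was called in these settings at 1.40, 1.38, 1.41, 1.40 and 1.32. Sord turned above 0 with blocks (0.10), limma-trend (0.0172), blocks and edgeR (0.17), blocks and DESeq2 (0.16), quality weights (0.21) and the log2 total as a covariate (0.0393). Mlxipl turned above 0 with quality weights (0.021), the log2 total (0.13) and without block 1 (0.27). Among the pathway lists, fructose and mannose enzymes had 1 gene called with blocks, DESeq2, and blocks and DESeq2. Polyol enzymes had 1 with those settings and with blocks and edgeR and quality weights, and ChREBP partners and targets had 2 with DESeq2. The cause of these changes was not tested.

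Leaving out 1 library at a time on the group alone gave 0 to 17 genes and 0 to 1 members called. The 17 genes, Tkfc at 1.56 among them, came without pMCAO replicate 3, 8 without pMCAO replicate 1 and 5 without sham replicate 7. With library blocks the same step gave 4 to 86 genes and 0 to 3 members. Without sham replicate 6 there were 4 genes, without pMCAO replicate 1 there were 6, and 0 members in both, while without pMCAO replicate 3 there were 86 genes and 3 members. Over both sets of fits Slc2a5 ranged from 1.10 to 1.94, Khk from 0.98 to 1.31, Tkfc from 1.15 to 1.68, Glyctk from 0.66 to 1.69, Sord from -0.17 to 0.23 and Mlxipl from -0.41 to 0.22. Called genes ranged from 0 to 2 in the fructose and mannose list, 0 to 1 in the polyol list and 0 to 3 in the ChREBP list. The lone library of block 4 carries no information on the group difference when blocks are fitted.

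Replicate numbers do not pair the libraries: same-numbered libraries had correlations of their deviations of 0.40, -0.24, -0.16, 0.16 and 0.08, and 1 of 5 correlated best with its own number. The fit with a replicate block, shown for completeness, called 243 genes and 3 members, with Slc2a5 at 2.16, Khk at 1.43, Tkfc at 1.31 and Sord at 0.33, and 3, 1 and 2 genes in the fructose and mannose, polyol and ChREBP lists. Low counts limit Glyctk, and 12 libraries limit all intervals.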
